A study of Mus musculus with 721 samples.

Results

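The histone cluster genes are the rows of the count table on chromosomes 1 to 19 whose symbols begin with Hist1h, Hist2h, Hist3h or Hist4h. There were 68 of them among 24483 rows, with 6 genes for H1 linker histones, 19 for H2A, 18 for H2B, 12 for H3 and 13 for H4. Chromosome 13 held 55, chromosome 3 held 10, chromosome 11 held 2 and chromosome 6 held 1. All were counted in picked cells of wild-type C57Bl/6Babr mouse embryos by SMART-seq2 after capture of polyadenylated RNA, with no treatment in any group. By their titles the cells came from 37 embryos, if each plate name and embryo number is taken as 1 embryo. The 9 E3.5 cells without an embryo number were kept as 1 embryo, and the titles do not exclude that embryos without a plate name share animals with numbered ones, so the numbers of replicates rest on this reading. There were 99 cells of 10 embryos of stage E3.5, 105 of 5 embryos of E4.5, 267 of 9 embryos of E5.5 and 250 of 13 embryos labelled E6.5, of which 2 embryos with 82 cells were titled E6.75. Titles called 9, 38, 67 and 14 of them double, for wells in which a pair of cells was seen at picking. Of the plate names in the titles 3 recur at more than 1 stage, among them P11.P6.P10 with 9 E3.5 and 93 E5.5 cells, and whether the same name marks the same plate is not given. The part of the plates in the differences between stages was not tested.

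Histones package DNA into nucleosomes, each with a core of H2A, H2B, H3 and H4, and H1 binds the linker DNA. The clustered genes are replication dependent. They are transcribed in S phase under NPAT, and most of their messages end in a short hairpin bound by SLBP in place of a poly(A) tail. A library made from polyadenylated RNA therefore captures these messages poorly, and what it counts is the part that does carry adenosines. Histone genes outside the clusters, such as H2afz and H3f3a, make replacement histones from ordinary polyadenylated messages at all times of the cell cycle. Cells of the early epiblast divide fast and spend much of their cycle in S phase.

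The hairpin is shown because most of these messages end in it in place of a poly(A) tail. It was searched in the GENCODE annotation of GRCm38 within 150 bases after the stop codon. The pattern was a perfect 6-base stem that starts with GG, around a 4-base loop of TTT and then A, C or T. The GG and TTT shared by the forms below were thus set by the search. Of the 68 genes, 48 had a 3′ UTR long enough to search and 42 held the pattern, 22 to 59 bases after the stop (median 32). Of 20737 genes with a 3′ UTR long enough to search, 48 held it (0.231%), and 6 of these were not histone cluster genes. The forms found are printed 5′ to 3′ as DNA, with the loop in capitals.
25 genes, among them Hist1h2ao, Hist1h2ae, Hist1h2bm, Hist3h2ba and Hist3h2a: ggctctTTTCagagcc
6 H4 genes, Hist4h4, Hist1h4n, Hist1h4h, Hist1h4f, Hist1h4d and Hist1h4c: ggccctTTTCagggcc
6 genes, Hist1h2bk, Hist1h3f, Hist1h3e, Hist1h1t, Hist1h3c and Hist1h2bb: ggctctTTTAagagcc
Hist2h4 and Hist1h4i: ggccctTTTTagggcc
Hist1h4j and Hist1h4b: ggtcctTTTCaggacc
Hist2h2ac: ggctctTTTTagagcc
No match was found for Hist1h2bc, an H2B gene, and the search covered only the 48 histone cluster genes with an annotated 3′ UTR of at least 60 bases.

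Of the 68 genes, 62 matched a promoter in the RefSeq table of GRCm38.p6, from 250 bases before the start of the gene to 50 after it. TATAAA on the coding strand was in 30 of the 62, beside 8.88% of the 27025 promoters in the table. CCAAT on either strand was in 53, beside 37.9%, and it was in 3 of 12 promoters of H4 genes. The octamer ATTTGCAT on either strand was in 13, which were 7 H2A and 6 H2B genes, beside 1.75%. The neighbours Hist3h2ba and Hist3h2a on chromosome 11, an H2B and an H2A gene 5151 bases apart, are printed because their levels took different courses below. Both lie on the plus strand, at chr11:58948661-58948960 and chr11:58954435-58954734, and capitals mark these motifs.
Hist3h2ba: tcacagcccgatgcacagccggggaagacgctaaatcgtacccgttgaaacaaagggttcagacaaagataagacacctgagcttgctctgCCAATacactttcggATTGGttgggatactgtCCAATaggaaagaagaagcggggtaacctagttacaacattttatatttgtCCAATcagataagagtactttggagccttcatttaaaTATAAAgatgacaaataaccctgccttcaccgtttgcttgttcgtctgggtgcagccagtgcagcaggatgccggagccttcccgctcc
Hist3h2a: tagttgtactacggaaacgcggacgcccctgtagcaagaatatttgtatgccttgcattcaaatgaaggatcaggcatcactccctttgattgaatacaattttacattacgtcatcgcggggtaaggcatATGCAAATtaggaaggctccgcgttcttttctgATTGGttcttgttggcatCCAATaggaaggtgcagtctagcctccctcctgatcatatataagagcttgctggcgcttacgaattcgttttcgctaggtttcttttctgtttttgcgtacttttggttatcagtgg
The Hist3h2ba promoter held TATAAA 39 bases before the start and 4 CCAAT motifs, 1 of them reversed, and the Hist3h2a promoter held a reversed octamer 119 bases before it and 2 CCAAT motifs, 1 reversed. A match of letters is a description and not evidence of binding.

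Reads on these genes were few but present in every cell. A cell had 14 to 8310 counts on them (median 332), from 66896 to 3792936 counts in all (median 692863), and 2 to 55 of the genes had a count (median 19). Their share of a cell's counts ran from 0.00354 to 0.327% with a median of 0.0463%. With each cell thinned to 60000 counts, the median number of genes detected by stage was 12 for E3.5 and for E4.5, 11 for E5.5 and 7 for E6.5.

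A few genes made most of the counts. Of 292970 counts on histone cluster genes, Hist1h2ao, an H2A gene of the chromosome 13 cluster, took 26.4%. Hist1h2bc (7.60%), Hist3h2ba (5.84%), Hist3h2a (5.79%), Hist1h2ae (5.62%), Hist1h4i (5.47%) and Hist1h4d (5.43%) followed, and these 7 genes together took 62.2%. The H2A genes took 47.2%, the H2B genes 22.8%, the H4 genes 15.2%, the H3 genes 8.13% and the H1 genes 6.60%. Genes with the hairpin took 81.6% of the counts, so most reads in this poly(A) library fell on genes of the hairpin kind. Exon lengths were taken from GENCODE, and 35 of the 68 genes start in the count table where GENCODE starts them, so the exon models behind the counts may differ. Per kb of these exons, the mean level over all embryo sums was 292 CPM (counts scaled to a common library total) for Hist1h2ao, 46.0 for Hist1h2ae, 42.2 for Hist1h2bc, 33.4 for Hist1h4i, 32.7 for Hist3h2ba, 24.4 for Hist1h4d and 11.7 for Hist3h2a.

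Copies of these genes are alike, and only reads with a mapping quality of at least 20 were counted, so reads that fit several copies were dropped and levels of single genes are uncertain to that extent. In 62 of the 68 genes at least 1 window of 100 bases, the read length, was identical to a window of another gene, and in 28 this held for more than 50% of the windows. Both strands and all annotated genes were compared, also genes at the same place, such as the miRNA Gm19658 over 138 bases of Hist1h2ao. Reads there can still map to 1 place, so these numbers and the shares below can be larger than the likeness between copies alone. The share was 92.7% for Hist1h2ao, 30.7% for Hist1h2ae, 25.4% for Hist1h2bc, 15.1% for Hist1h4i, 6.59% for Hist1h2bm, 4.85% for Hist3h2ba and 0 for Hist1h4d. The library does not mark strand. Hist3h2a shared 33.0% of its exon bases with Trim17, Hist2h3b and Hist2h2bb lay wholly within exons of the antisense gene Gm20628, and 56.2% of Hist1h4b lay within the antisense gene 4930558J22Rik, so their reads cannot be told apart from those partners. The same holds for Hist1h1e, which shared 25.7% of its exon bases with Hist1h2be and 16.6% with the pseudogene Gm11398. Hist1h2ao lies at chr13:21810465-21810944 and Hist1h2bc at chr13:23684199-23692908, both on the plus strand.

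Cells were classed by clustering and named from marker genes. The E3.5 cells were kept as 1 group, the inner cell mass. The E4.5 cells split into 79 like primitive endoderm (PrE-like) and 26 epiblast-like cells. Stage E5.5 held 259 epiblast-like cells, 5 endoderm-like cells and 3 left unnamed. Stage E6.5 gave 184 epiblast-like, 41 endoderm-like and 25 primitive streak-like cells. The summed level of 20 endoderm markers ran from 11203 to 17140 CPM in PrE-like sums and from 1554 to 3369 in E4.5 epiblast-like sums, and from 13022 to 37301 against 620 to 6599 CPM at E6.5. The E6.5 endoderm-like cluster was led by the globin genes Hba-a1, Hbb-b1 and Hba-a2, although the median level of Hba-a1 over its embryos was 0 and the highest 849 CPM, and its 15 streak markers summed to 358 to 2718 CPM against 70.0 to 678 in the epiblast-like sums. Their part in the results below was not tested. In sums of cells, fewer cells making a message and less message per cell cannot be told apart.

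The share of counts on histone cluster genes overlapped between the 6 classes compared, with a wide spread between embryos. The mean over embryos, each the mean of its cells, was 0.0559% ± 0.0287 at E3.5 (SD, n = 10), 0.0691% ± 0.0156 in PrE-like cells (n = 5), 0.0598% ± 0.0156 in E4.5 epiblast-like cells (n = 5) and 0.0539% ± 0.0160 in E5.5 epiblast-like cells (n = 8). At E6.5 it was 0.0438% ± 0.0284 in epiblast-like (n = 13) and 0.0384% ± 0.0116 in endoderm-like cells (n = 7). Embryos of neighbouring stages overlapped throughout, and no test was run on the share, since it is a score over chosen genes. The values by embryo ran from 0.0103 to 0.0931% at E3.5 (median 0.0471%), from 0.0291 to 0.0839% in the E5.5 epiblast-like class (median 0.0546%) and from 0.0176 to 0.121% in the E6.5 epiblast-like class (median 0.0381%).

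**Figure D1:**
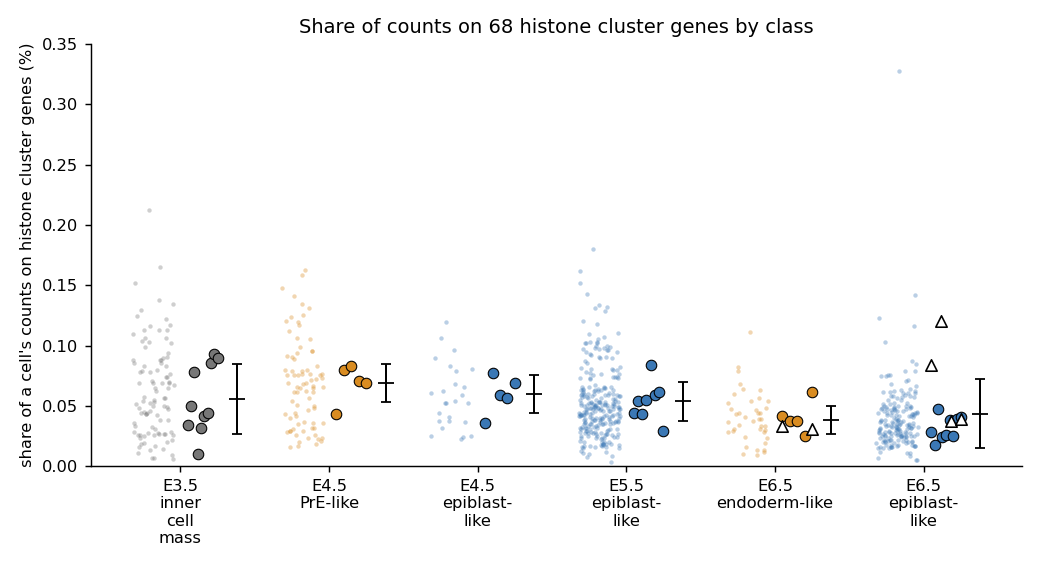
Share of a cell's counts on the 68 histone cluster genes (percent) by class. Small dots are cells, filled circles are embryo means on named plates, open triangles are embryos without a plate name, and bars are the mean ± SD over embryos. Embryo means overlap between the 6 classes compared, and 2 E6.5 epiblast-like embryos without a plate name stand at 0.0842 and 0.121%, above the 9 on named plates.

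In the E4.5 embryos both lineages could be read from the same animal. The PrE-like cells of embryos 1 to 5 had shares of 0.0433, 0.0796, 0.0830, 0.0706 and 0.0689%, and the epiblast-like cells of the same embryos 0.0362, 0.0777, 0.0589, 0.0571 and 0.0691%. The PrE-like value was the higher in 4 of the 5, and the 2 sets of values overlapped.

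Plate means of 1 stage spread over a range like that of the stage means. Under the plate name P11.P6.P10 the E3.5 cells averaged 0.0343% and the 2 E5.5 embryos 0.0493%, the reverse order of the stage means. At E3.5 the 5 embryos on plate P8 averaged 0.0424% and the 4 on plate P9 0.0782%. At E5.5 the plate means were 0.0436, 0.0493, 0.0695 and 0.04997%. The 9 E6.5 embryos on named plates averaged 0.0319% ± 0.00978 in epiblast-like cells, below every E5.5 plate mean. The 2 embryos titled E6.5 with no plate name stood at 0.0842 and 0.121%, from 11 cells, and the 2 titled E6.75 at 0.0380 and 0.0391%, from 73 cells.

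The makeup of the counts was then set out by class, with the counts of all its cells pooled, so that cells with more counts weigh more. The E6.5 epiblast-like pool includes embryo 2 titled E6.5 without a plate name, whose share was 0.121%. Its part in the makeup was not tested. In the epiblast line, the H3 genes took 14.3, 9.98 and 4.57% of the histone cluster counts by stage (E4.5, E5.5, E6.5), and the H2A genes took 39.8, 38.5 and 53.8%. Hist1h2ao alone took 17.8% at E5.5 and 37.7% at E6.5. Without it, the mean share of all counts was 0.0430% at E3.5, 0.0488 and 0.0480% in the E4.5 lineages, 0.0430% in E5.5 epiblast-like cells and 0.0266% in E6.5 epiblast-like cells. Hairpin genes took between 79.8 and 83.6% of the histone cluster counts in 5 of these 6 classes and 59.2% in the E6.5 endoderm-like cells. The rest includes genes that could not be searched, and Hist1h2bc, which had no match and stood higher in that class (below).

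**Figure D2:**
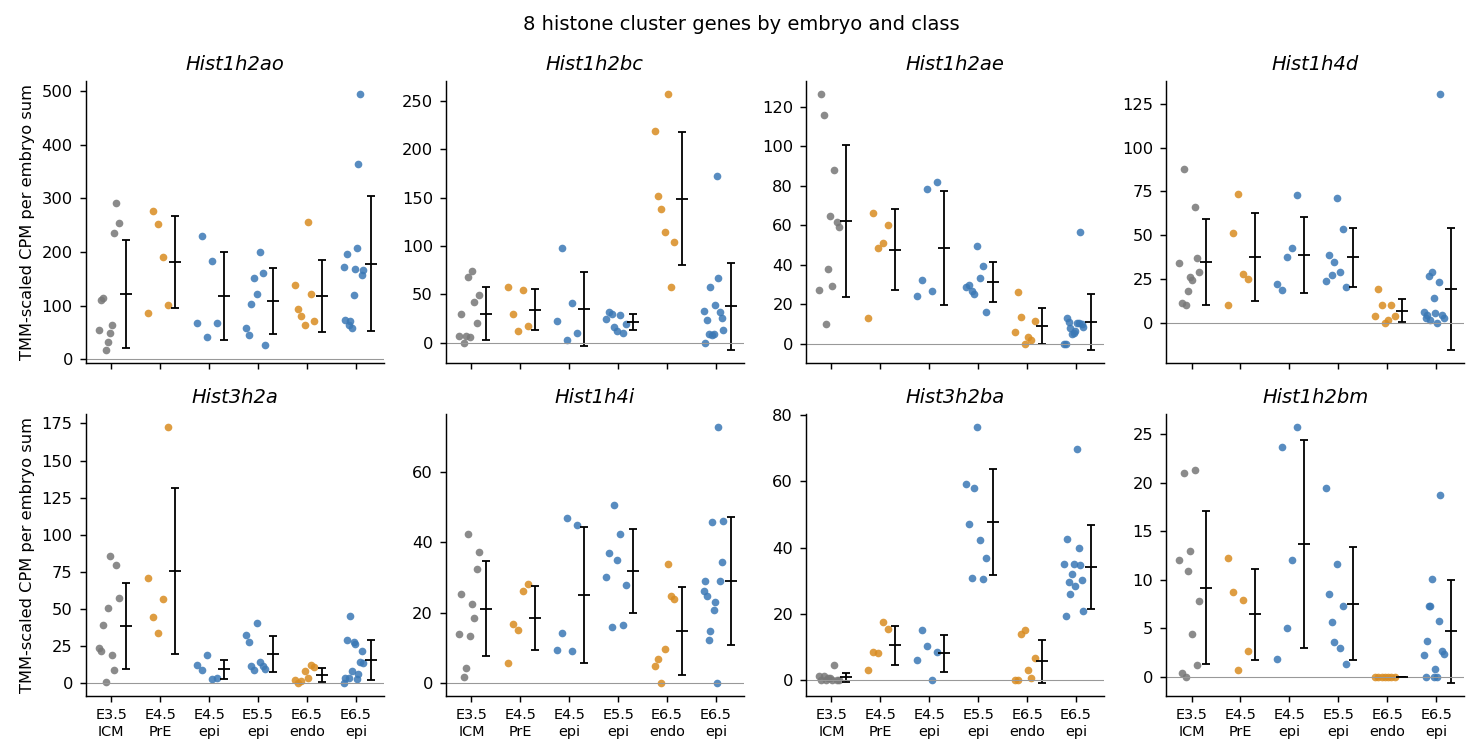
Levels of 8 histone cluster genes (TMM-scaled CPM) by class. Each dot is the sum of 1 embryo's cells and bars are the mean ± SD over embryos; Hist3h2ba is at most 15.2 CPM in E4.5 epiblast-like sums and at least 30.6 CPM in E5.5 epiblast-like sums, and Hist1h2bm has no count in the 7 E6.5 endoderm-like sums.

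Single genes were compared on raw counts, added up for each class and embryo with 3 or more cells. The test was edgeR's quasi-likelihood F test, and p-values were adjusted after Benjamini and Hochberg over all 13494 genes tested. A call needed an adjusted p no higher than 0.05 and a log2 change beyond 1, or beyond 2 between the E4.5 lineages. There were 48 sums of 678 cells, with 1476466 to 49484352 counts. Of the 68 genes, 56 passed the filter on low counts. The other 12 (Hist1h2aa, Hist1h2ah, Hist1h2al, Hist1h2ba, Hist1h2br, Hist1h4a, Hist2h2aa1, Hist2h2aa2, Hist2h2ab, Hist2h2be, Hist2h3c1 and Hist2h3c2) held 0.520% of the counts on histone cluster genes and had mean levels of at most 0.885 CPM.

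From the E3.5 inner cell mass to the E4.5 epiblast-like cells, Hist3h2ba and Hist1h4j rose and no histone cluster gene fell. Over all genes, 12.2% were called higher and 8.47% lower. Hist3h2ba, the H2B gene beside Hist3h2a, was at 0 to 4.42 CPM in the 10 E3.5 embryos (median 0.328, with 4 at 0) and at 5.99, 15.2, 10.4, 0 and 8.44 CPM in the 5 E4.5 embryos. All E4.5 embryos but the 1 at 0 lay above every E3.5 embryo. The log2 change was 3.25 ± 0.88 (SE), with an edgeR adjusted p of 0.00489. Hist1h4j, an H4 gene, was at 0 to 1.73 CPM at E3.5 and at 0, 28.2, 0, 3.67 and 0 CPM at E4.5, for a log2 change of 4.55 ± 1.61 and an edgeR adjusted p of 0.0341. Its call rested on embryo 2, without which the log2 change was 1.81 and the adjusted p 0.495. With cells titled double left out neither gene was called (Hist3h2ba log2 2.76, edgeR adjusted p 0.0754, and Hist1h4j 4.55, 0.0766), and with sums of at least 5 cells Hist3h2ba was at 2.07 (adjusted p 0.210).

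No call was made for the other abundant genes over this step, and the standard errors do not show that they stayed the same. The log2 change was −0.05 ± 0.51 for Hist1h2ao, 0.19 ± 0.75 for Hist1h2bc, −0.35 ± 0.73 for Hist1h2ae, 0.17 ± 0.79 for Hist1h4d and 0.23 ± 0.75 for Hist1h4i, with adjusted p-values of 0.808 to 0.991. Hist3h2a went from 0.674 to 85.6 CPM at E3.5 (median 31.2) to 11.98, 8.46, 18.8, 2.97 and 3.11 CPM at E4.5, a log2 change of −2.09 ± 0.89 with an edgeR adjusted p of 0.0834. DESeq2 gave the same log2 change with an adjusted p of 0.0211. The median over the 56 genes was 0.25 and over all genes 0.00, and 38 of the 56 were positive.

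Over the same step, of 42 S phase genes 5 rose and 3 fell, and those with the smallest adjusted p were Hells, Ccne2, Pcna and E2f8, which rose. Of 51 G2 and M phase genes 10 rose, led by Tubb4b, Cks1b, G2e3 and Cenpf, and 1 fell. Of 15 G1 cyclins and inhibitors 6 rose, led by Ccnd1, Cdk4, Cdk6 and Ccnd2, and 2 fell. None of 15 genes for histone mRNA processing, which include Slbp and Npat, and none of 12 histone chaperones was called. Of 11 histone genes outside the clusters, H2afz rose, and H2afy and H2afx fell. Beside these lists, 12.2% of all genes were called higher and 8.47% lower.

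From E4.5 to E5.5 in the epiblast line, no histone cluster gene was called by edgeR, beside 3.09% of all genes higher and 2.45% lower. Hist3h2ba was the 1 gene of the 56 with an unadjusted p under 0.05, and DESeq2 called it. It stood at 30.6 to 76.5 CPM in the 8 E5.5 embryos (median 44.6), and the E4.5 and E5.5 embryos did not overlap. The log2 change was 2.58 ± 1.02, with an adjusted p of 0.118 by edgeR and 0.0236 by DESeq2. Hist1h2ao (26.1 to 201 CPM at E5.5, log2 −0.12 ± 0.52) and Hist1h4i (16.03 to 50.7 CPM, 0.36 ± 0.80) overlapped with E4.5. So did Hist3h2a (1.11 ± 0.87), Hist1h2bc (−0.68 ± 0.77), Hist1h2ae (−0.65 ± 0.74) and Hist1h4d (−0.06 ± 0.82), and the adjusted p-values of these 6 were 0.545 to 0.993. None of the S phase, chaperone and processing genes was called. Of the G2 and M phase genes Rangap1 rose (159 ± 34.1 to 326 ± 67.4 CPM) and Cenpf fell (319 ± 84.6 to 154 ± 20.7 CPM), and of the G1 list Ccnd3, a D cyclin, fell (271 ± 99.6 to 111 ± 18.7 CPM). Of the histone genes outside the clusters H2afj rose (114 ± 30.3 to 231 ± 67.02 CPM) and H2afy, which makes macroH2A, fell (116 ± 20.98 to 7.97 ± 3.96 CPM, SD, n = 5 and 8).

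From E5.5 to E6.5 most of the tested genes were lower but none was called by edgeR, where 3.63% of all genes were called higher and 4.42% lower. The log2 change was negative for 47 of 56, the median was −0.80 against −0.03 over all genes, and 5 had an unadjusted p under 0.05. DESeq2 called Hist1h2ag and Hist1h4b lower. Hist1h2ae, an H2A gene, went from 15.8 to 49.6 CPM (median 29.2) in the E5.5 embryos to 0 to 56.5 CPM (median 8.50) in the E6.5 embryos, a log2 change of −1.48 ± 0.58 with an edgeR adjusted p of 0.0980. Hist1h4d went from a median of 32.1 to 5.84 CPM, with a range of 0.189 to 131 CPM at E6.5 and a log2 change of −0.93 ± 0.64 (adjusted p 0.410). Hist1h2ao went the other way, from a median of 112 to 166 CPM, by 0.71 ± 0.42 (adjusted p 0.323). Hist1h2bc (0.80 ± 0.63), Hist3h2a (−0.34 ± 0.65) and Hist1h4i (−0.13 ± 0.62) were not called.

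This step also turned on the embryos without a plate name. On named plates alone, 5 genes were called lower (Hist2h3b, Hist1h2af, Hist1h2ae, Hist1h3c and Hist1h4b) and the median was −1.38. With only the 2 embryos titled E6.5 without a plate name left out, 6 were called lower, those 5 and Hist1h4d, with a median of −1.65. Leaving out 1 of these 2, embryo 2 with 7 cells, gave 5 lower calls (Hist2h3b, Hist1h2ae, Hist1h4d, Hist1h3c and Hist1h4b) and a median of −1.56. Leaving out the other gave 1, Hist1h1t, and each of the other 11 E6.5 embryos in turn gave 0. With both left out Hist1h2ae was at −2.13 (edgeR adjusted p 0.00948) and Hist1h4d at −2.02 (0.0218). With E6.5 embryos without a plate name only, none was called and the median was 0.05. The share of all genes called in these fits was not set beside them, so their counts cannot be read as particular to histone cluster genes. The plates and the batch of these embryos cannot be told apart from other differences between them.

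Over the same step, Atad2 rose by 1.20 ± 0.27 and Rfc2 and Cdt1, which load the sliding clamp and the helicase of DNA replication, fell by 1.07 and 1.63 on the log2 scale. Those were the S phase genes called, 1 higher and 2 lower of 42, and 4 of 51 G2 and M phase genes rose, among them Ube2c, Cenpe and Nusap1, and 2 fell, among them Cdc20. Of the G1 list Cdkn1b rose and Cdkn2c, at 0.706 CPM on average at E5.5 and without a count at E6.5, fell. Sympk, part of the complex that cuts histone pre-mRNA, fell from 100 ± 38.6 to 34.6 ± 38.8 CPM, the only call among 15 processing genes. H2afj and H2afx fell, and H2afy and H1f0 rose. Beside these lists, 3.63% of all genes were called higher and 4.42% lower.

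Between the E4.5 lineages Hist3h2a stood higher in PrE-like cells and no histone cluster gene stood lower, beside 3.71% of all genes called higher and 2.19% lower. Its level in embryos 1 to 5 was 70.9, 44.5, 33.4, 56.7 and 173 CPM in PrE-like cells and 11.98, 8.46, 18.8, 2.97 and 3.11 CPM in epiblast-like cells of the same embryos. The lowest PrE-like value lay above the highest epiblast-like value. The log2 difference was 3.07 ± 1.001, with an edgeR adjusted p of 0.0458, and with the embryo as a replicate block 3.12, with an adjusted p of 0.0194. Hist3h2ba, its neighbour, did not follow, at 3.16 to 17.5 CPM against 0 to 15.2 (log2 0.41 ± 1.02, adjusted p 0.898). Hist1h2ao differed by 0.62 ± 0.59, Hist1h4i by −0.44 ± 0.88 and Hist1h2bc, Hist1h4d and Hist1h2ae by −0.05 to −0.02, and none was called. The call for Hist3h2a was lost when any 1 of the 5 embryos was left out, with log2 differences of 2.31 to 3.73 and adjusted p-values of 0.0501 to 0.232, and with cells titled double left out (2.58, adjusted p 0.127).

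No gene of the S phase, G2 and M phase, processing, chaperone or outside histone lists was called between the E4.5 lineages. Of the G1 cyclins and inhibitors Ccnd1 was at 12.5 ± 11.1 against 150 ± 43.9 CPM and Cdk6 at 1.16 ± 1.45 against 46.2 ± 29.5 CPM, both lower in PrE-like cells (n = 5 and 5). The median over the 56 histone cluster genes was −0.04, beside 0.06 over all genes.

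At E6.5 more histone cluster genes were called between the lineages. In endoderm-like against epiblast-like cells Hist1h2bc was higher and 11 genes were lower, of 56 tested, beside 6.22% of all genes called higher and 9.21% lower. The 11 were 3 H2B genes (Hist3h2ba, Hist1h2bm and Hist1h2bg), 3 H4 genes (Hist1h4c, Hist1h4h and Hist1h4f), 4 H3 genes (Hist1h3a, Hist1h3f, Hist1h3h and Hist2h3b) and the H2A gene Hist1h2af. The log2 difference was negative for 50 of the 56, the median was −1.49 with −0.19 over all genes, and it was −1.39 with genes at 0 put at their bounds. DESeq2 called 1 higher and 14 lower.

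Hist1h2bc, 1 of the 26 genes without a hairpin match, ran from 57.3 to 258 CPM in the 7 endoderm-like sums (median 139) and from 0 to 172 CPM in the 13 epiblast-like sums (median 25.0). Most of those 26 had no annotated 3′ UTR long enough to search. The ranges overlapped through 1 epiblast-like embryo on plate P3 at 172 CPM, and through 1 at 66.5 CPM. The log2 difference was 1.99 ± 0.62 with an edgeR adjusted p of 0.0200, and with the embryo as a replicate block it was 3.20 with an adjusted p of 0.0196. Hist1h2bc took 34.3% of the histone cluster counts in endoderm-like and 7.04% in epiblast-like cells. In the other 5 classes its mean lay between 21.5 and 37.4 CPM. On named plates alone the log2 difference was 2.17 with an adjusted p of 0.0572, and without embryo 8 on plate P3 it was 1.76 with an adjusted p of 0.0594.

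Hist3h2ba ran from 0 to 15.1 CPM in endoderm-like sums and from 19.3 to 69.8 CPM in epiblast-like sums, and no sum of either class reached the other. The log2 difference was −2.60 ± 0.85, with an edgeR adjusted p of 0.0265. Without embryo 1 titled E6.75 it was −2.41 with an adjusted p of 0.0620. Over the whole series its mean was 0.801 CPM at E3.5, 10.5 in PrE-like cells, 8.01, 47.6 and 34.1 in epiblast-like cells of E4.5, E5.5 and E6.5, and 5.61 in E6.5 endoderm-like cells. The epiblast-like means of E5.5 and E6.5 were thus the highest of the 6 classes. Of the steps tested, those from E3.5 to E4.5 and between the E6.5 lineages passed.

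Of the lower genes, 7 had no count in any of the 7 endoderm-like sums, which held 32135045 counts from 33 cells, against 145440404 counts from 184 cells in the epiblast-like sums. With 3 counts over the group as the floor, Hist1h2bm was at least 55.8-fold lower (757 epiblast-like counts, edgeR adjusted p 0.000332). Hist1h3a was at least 16.9-fold, Hist1h2af at least 11.7-fold and Hist1h3h at least 8.18-fold lower, with adjusted p-values of 0.00897, 0.00869 and 0.0129. Hist1h4h was at least 7.29-fold, Hist1h4f at least 6.48-fold and Hist2h3b at least 3.09-fold lower. In the epiblast-like class 3 to 8 of the 13 sums were at 0 for these genes, so the ranges overlapped at 0. Embryo 2 titled E6.5 without a plate name, with 7 cells of which 3 were titled double, held many of the epiblast-like counts. Without it the bounds were 43.4-fold for Hist1h2bm and 8.16-fold for Hist1h3h, but 9.61-fold for Hist1h3a, 3.39-fold for Hist1h2af, 4.60-fold for Hist1h4h and 3.15-fold for Hist1h4f. Hist2h3b then had 13 epiblast-like counts and a bound of 1.0501, which is next to none. Of the 7, Hist1h4f (adjusted p 0.0507) and Hist2h3b (0.106) lost the call in that fit. Over all 13 epiblast-like sums Hist1h2bm had a median of 2.64 CPM and reached 18.8 CPM, in that embryo 2. Its mean was 9.20 CPM at E3.5, 6.46 and 13.7 in the E4.5 PrE-like and epiblast-like classes and 7.53 at E5.5.

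Among the genes with some endoderm-like counts, Hist1h4c had 2 counts against 500, which is 55.2-fold lower per count of the class (95% exact counting interval 15.2 to 457), with a fitted log2 difference of −5.76 ± 1.28 and an edgeR adjusted p of 0.00146. Hist1h2bg had 5 against 467, 20.6-fold lower (8.78 to 63.9), and Hist1h3f 1 against 137, 30.3-fold lower (5.34 to 1204), with adjusted p-values of 0.0435 and 0.0444. The intervals cover counting error only. Without the same embryo 2 the ratio was 36.0 for Hist1h4c (297 epiblast-like counts), 7.61 for Hist1h2bg (157) and 17.4 for Hist1h3f (72), and the adjusted p-values were 0.00249, 0.171 and 0.103. Over the 13 fits that each left out 1 E6.5 embryo, Hist1h4c kept its call with ratios of 36.0 to 102, the highest without embryo 1 titled E6.75 and 97.8 without embryo 7 on plate P3. Hist1h2bg lost its call in 7 fits (7.61 to 32.3, with 32.3 and 30.2 without embryo 2 on plate P1 and embryo 5 on plate P2), Hist1h3f in 8 and Hist2h3b in 8. Without embryo 8 on plate P3, Hist1h3f had no endoderm-like count and was at least 8.51-fold lower. Hist1h2bg turned to 1.20 with an adjusted p of 0.486 when sums of 1 cell were let in. The most abundant gene, Hist1h2ao, was at 63.4 to 256 CPM (median 94.2) in endoderm-like and 57.8 to 495 CPM (median 166) in epiblast-like sums, with a log2 difference of −0.59 ± 0.44 and an adjusted p of 0.377. Hist3h2a, higher in PrE-like cells at E4.5, was at 0 to 12.2 against 0 to 44.98 CPM here (−1.54 ± 0.74, adjusted p 0.142). Hist1h4d, Hist1h4i and Hist1h2ae differed by −1.44 ± 0.73, −0.97 ± 0.68 and −0.32 ± 0.63, and none was called.

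**Figure D3:**
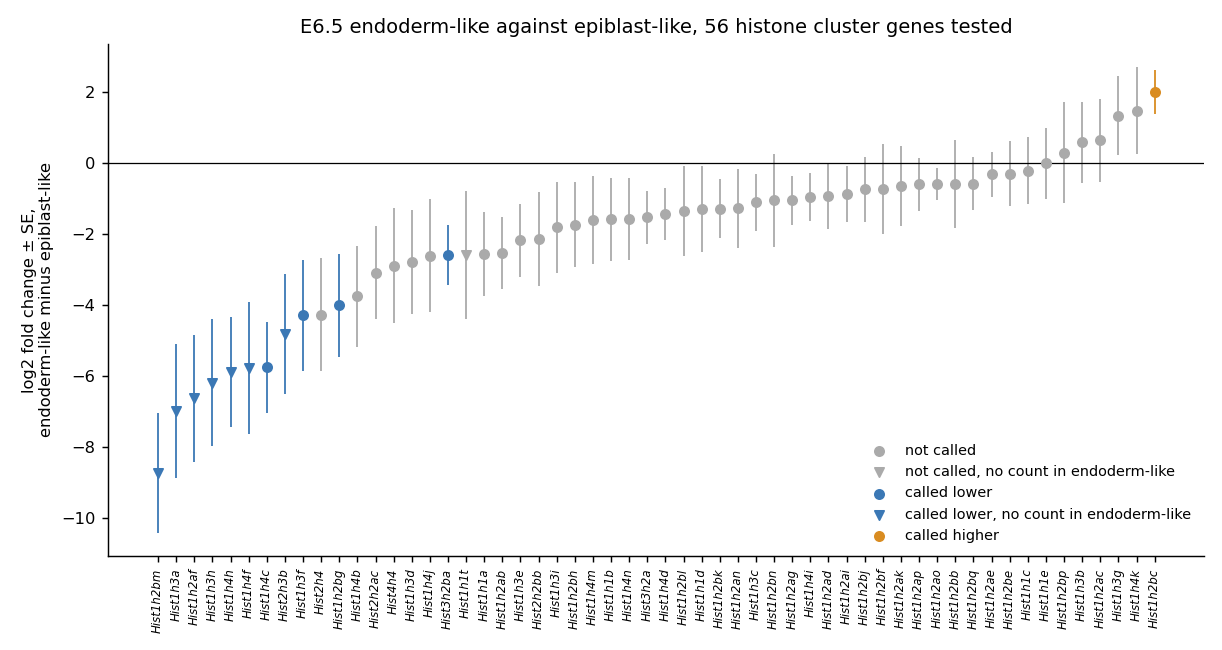
Log2 difference (endoderm-like minus epiblast-like, E6.5) of the 56 histone cluster genes tested, with the standard error as bars. Triangles are genes with no count in the endoderm-like sums, for which the fitted value is no bound; Hist1h2bc at 1.99 is the called gene to the right and Hist1h2bm at −8.72 lies farthest to the left.

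The number of calls depended on the embryos. With each E6.5 embryo left out in turn, 8 to 14 were called, the fewest without embryo 2 titled E6.5 without a plate name (1 higher and 7 lower), where the median was −0.91. Within the 7 embryos that had both lineages, with the embryo as a replicate block, 18 histone cluster genes could be tested and Hist1h2bc alone was called. The same embryos without the block gave the same call. On named plates alone, 5 were called lower, of which Hist1h2bm, Hist1h4h and Hist1h4c were among the 11, and in the embryos without a plate name none was called. Here too the share of all genes called in these fits was not set beside them.

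The lineage difference itself was compared between E4.5 and E6.5 with an interaction term, which called 1.04% of all genes higher and 3.04% lower. It called Hist3h2a (−4.60 ± 1.24, edgeR adjusted p 0.0246), Hist1h2bm (−7.64 ± 2.07, 0.0261) and Hist1h4h (−6.53 ± 1.98, 0.0466), all lower in the endoderm at E6.5 relative to E4.5. At E4.5 Hist1h2bm differed by −1.08 ± 1.27 and Hist1h4h by 0.64 ± 1.36 between the lineages, and neither passed the test.

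The counts were also summed by kind, where the genes without a match include those with no annotated 3′ UTR long enough to search. Hairpin genes made 0.0208% ± 0.00616 of counts in endoderm-like and 0.0368% ± 0.0239 in epiblast-like cells, and genes without a match made 0.0176% ± 0.00701 and 0.00700% ± 0.00488 (SD, n = 7 and 13). In the E4.5 lineages the PrE-like and epiblast-like means were 0.0583 and 0.0484% for the hairpin genes and 0.0108 and 0.0114% for the others. By histone, the H3 genes made 0.00097% in endoderm-like and 0.0021% in epiblast-like cells at E6.5, and the H2B genes, which include Hist1h2bc, 0.0175 and 0.0101%. These sums are descriptions without a test. Hist1h2bc is among the genes without a match, with a mean of 149 CPM in endoderm-like and 37.4 CPM in epiblast-like sums. Gene by gene, the median log2 difference at E6.5 was −1.56 over the 38 hairpin genes tested and −1.31 over the 18 without a match.

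The lists of other genes were compared in the same way at E6.5. Of all genes, 9.21% were called lower and 6.22% higher there. The S phase list and the G2 and M phase list were called lower about as often as genes at large. In endoderm-like cells Cdca7 (89.1 ± 46.1 against 263 ± 66.1 CPM), Ubr7 and Exo1 were lower of 42 S phase genes, and 5 of 51 G2 and M phase genes were lower, among them Psrc1, Cdca8, Ncapd2 and Plk1, a mitotic kinase (41.7 ± 35.2 against 131 ± 55.9 CPM). Ccnd1, a D cyclin, was lower at 54.98 ± 46.5 against 360 ± 122 CPM. Nasp, a chaperone that carries H3, H4 and H1, was at 447 ± 191 against 921 ± 198 CPM, with a log2 difference of −1.04 ± 0.20 and an edgeR adjusted p of 0.000285. It was the only call among 12 chaperones, and none of the 15 processing genes was called. H2afy, which makes macroH2A, and H1f0, the replacement linker histone, stood higher, at 153 ± 91.8 against 37.1 ± 23.0 CPM and 140 ± 65.6 against 66.4 ± 28.6 CPM.

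Cells titled double were then compared with cells titled single of the same class. In PrE-like cells the shares in wells titled double and single were 0.0817 and 0.0754% in embryo 2, 0.0978 and 0.0711% in embryo 3, 0.0688 and 0.0717% in embryo 4 and 0.0832 and 0.0605% in embryo 5. The share was higher in 3 of the 4 embryos, by 0.0132% ± 0.0139 of counts, and without Hist1h2ao in 4 of 4, by 0.0148% ± 0.0106. In E5.5 epiblast-like cells it was higher in 2 of 6 embryos, with a mean difference of 0.00168% ± 0.00844. Those 2 were embryo 2 (0.0895 against 0.0779%) and embryo 4 (0.0687 against 0.0558%), and in the other 4 the title single was the higher by up to 0.00732%.

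**Figure D4:**
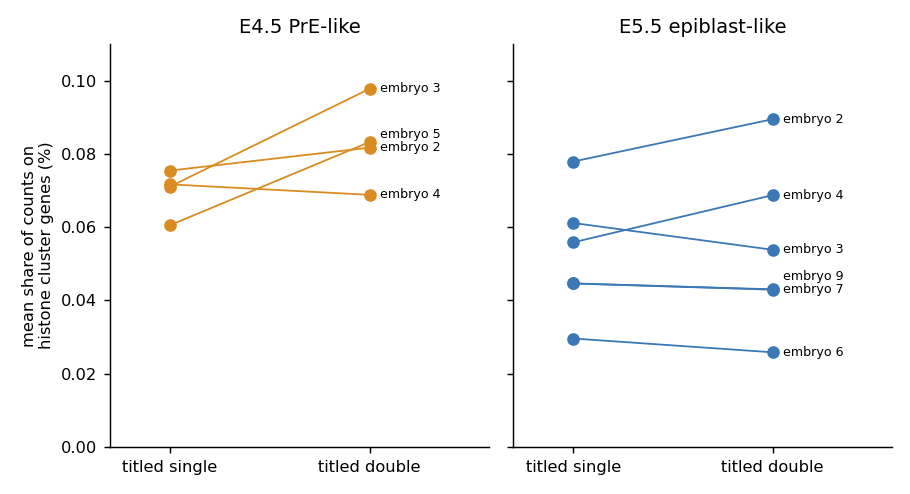
Mean share of counts on the histone cluster genes (percent) in cells titled single and double, with lines that join the values of 1 embryo. The PrE-like lines rise in 3 of 4 embryos and the E5.5 epiblast-like lines in 2 of 6.

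No histone cluster gene differed between the titles by edgeR, of 51 tested at E5.5 and 40 in PrE-like cells, and 0.0% of all genes tested were called in either class. None of the histone cluster genes had an unadjusted p under 0.05 in either class, where 352 of 11521 and 241 of 10052 genes did. DESeq2 called no histone cluster gene, and 3 and 4 genes in all. The median log2 difference was −0.09 at E5.5 (21 positive of 51) and 0.51 in PrE-like cells (32 positive of 40), with −0.02 over all genes in both. The 6 genes with the highest mean CPM differed by −0.72 (Hist3h2a) to 0.14 (Hist1h2ao) at E5.5 and by 0.09 (Hist1h2ao) to 1.15 (Hist3h2a) in PrE-like cells. Genes with a count were more numerous in the titled doubles of every E5.5 embryo, with medians over cells of 6924 to 8104 against 5363 to 7005.

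The cell with the highest share of all, 0.327%, was an E6.5 epiblast-like cell titled double. It came from embryo 2 without a plate name, where 3 cells titled double averaged 0.147% and 4 titled single 0.101%. At E3.5 the 1 embryo with enough cells of both titles had 0.0866 and 0.0909%.

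To see whether cells rich in histone messages were rich in other cell cycle messages, Spearman's rho was taken inside each embryo that had 8 or more cells of a class. Share and lists come from the same library, and depth differs between cells, so these values are descriptions. With the mean level of the 42 S phase genes the median rho was 0.24 at E3.5 (−0.28 to 0.45, above 0 in 4 of 5 embryos) and 0.33 in PrE-like cells (−0.08 to 0.43, 4 of 5). It was 0.03 in E5.5 epiblast-like cells (−0.11 to 0.74, 6 of 8) and −0.01 in E6.5 epiblast-like cells (−0.28 to 0.45, 3 of 7). The embryos of a class differed widely, and in the later epiblast the median was near the 0.02 and −0.01 of all single genes.

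With the 51 G2 and M phase genes the median rho was −0.04 at E3.5, −0.11 in PrE-like cells (−0.76 to −0.04, above 0 in none of 5 embryos), −0.06 at E5.5 and −0.27 in E6.5 epiblast-like cells (−0.49 to 0.15, 2 of 7). Single genes gave the same order. In PrE-like cells 28 of 42 S phase genes and 9 of 51 G2 and M phase genes had a median rho above 0, with 54.8% of all genes. In E5.5 epiblast-like cells it was 26 of 42 and 15 of 51, with 57.5% of all genes, and in E6.5 epiblast-like cells 23 of 42 and 13 of 51, with 46.6%. Cells with a high share thus had, in the median embryo, levels of mitotic genes at or below those of other cells.

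**Figure D5:**
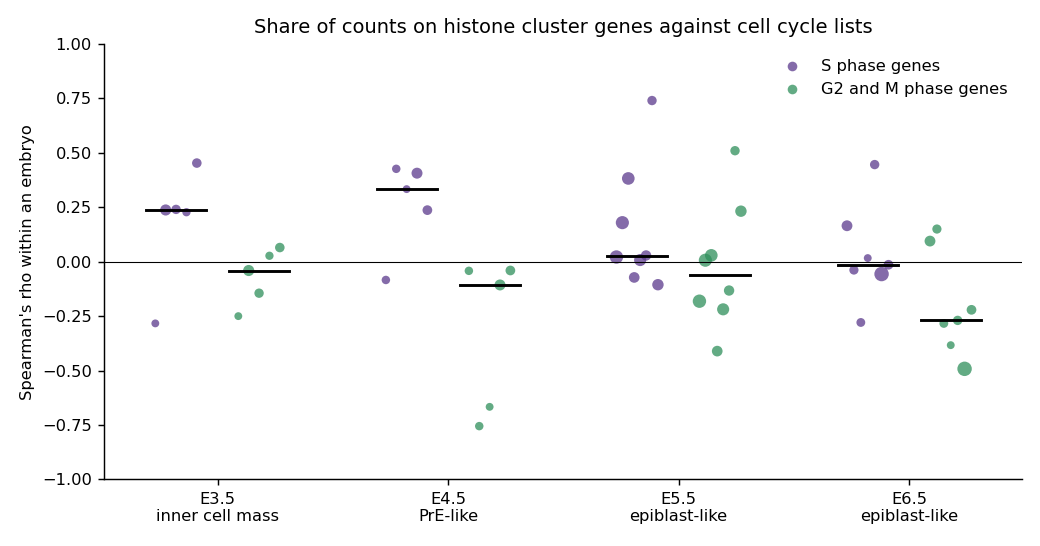
Spearman's rho between a cell's share of counts on histone cluster genes and its mean level of each gene list, by class. Points are embryos with at least 8 cells (area by number of cells) and lines are medians; S phase genes sit at 0.24 and 0.33 at E3.5 and in PrE-like cells and near 0 later, and G2 and M phase genes sit below 0 in each class.

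The measure mattered. The share is led by Hist1h2ao, and with the mean log2(CPM + 1) over the 68 genes in its place the median rho with S phase genes was 0.35 at E3.5 (above 0 in 5 of 5 embryos), 0.41 in PrE-like cells (5 of 5), 0.27 at E5.5 (7 of 8) and −0.01 at E6.5. With G2 and M phase genes it was 0.14 at E5.5 and 0.06 at E6.5. The share also went with depth, with a median rho with total counts of −0.30 at E3.5, below 0 in all 5 embryos, and of −0.17 at E5.5. The part of depth in these values was not tested beyond thinning.

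Single histone cluster genes were set beside the S phase genes at E5.5. Hist1h1e, a linker histone gene chosen after its values were seen, had a median rho of 0.28 with the S phase list and Hist1h4i 0.17, both above 0 in 8 of 8 embryos. Hist1h2bc had 0.21 and Hist1h3c, likewise chosen afterwards, 0.21, each above 0 in 7 of 8. Of the 12 genes looked at, 9 had a median above 0 with the S phase list and 8 with the G2 and M phase list. The neighbours on chromosome 11 had −0.17 (Hist3h2ba, −0.45 to 0.32, above 0 in 3 of 8) and −0.10 (Hist3h2a, 2 of 8), and Hist1h2ae (0.07) and, chosen after their values were seen, Hist1h2bj (−0.01) and Hist1h2ag (0.00) lay near 0. Hist3h2a had 0.18 with the G2 and M phase genes, above 0 in 8 of 8. With that list the medians of the 12 genes ran from −0.13 (Hist1h2bc) to 0.20 (Hist1h2ab, chosen after its values were seen).

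The histone types also rose and fell with each other between cells of 1 embryo. At E5.5 the median rho was 0.52 between the shares of H2A and H4 genes (0.33 to 0.65), 0.42 between H3 and H4, 0.40 between H1 and H2A and 0.36 between H2A and H3, each above 0 in 8 of 8 embryos, and 0.24 between H2A and H2B. Hist1h2ao against the sum of all others gave 0.48, and hairpin genes against the rest 0.38. All of these shares have the same denominator, the total of the cell.

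Of genes outside the clusters, Pcna, the replication clamp, had a median rho of 0.15 with the share at E5.5 (above 0 in 7 of 8 embryos), Top2a 0.22, Rbbp4 0.19, H3f3a 0.19, Sympk 0.18, Npat 0.15 and Nasp 0.12. Slbp, whose protein binds the hairpin, had −0.03 (3 of 8). These 8 were chosen after their values were seen. The middle 90% of all genes lay between −0.14 and 0.17. The 10 genes with the highest values were Rpl8 (0.37), Sod1 (0.35), Lama5 (0.34), Atxn2l (0.33), Rpl13a (0.33), Rpl7a-ps5 (0.32), Rbm45 (0.32), Gm10275 (0.31), Rps12-ps3 (0.31) and Rpl26 (0.31). None was on a cell cycle or histone list, and several encode ribosomal proteins or carry names of ribosomal pseudogenes.

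Phases were assigned with cyclone, none of whose gene pairs held a histone cluster gene, and gave 478 cells in G1, 187 in S and 56 in G2M. Means by phase were taken over cells pooled from all embryos of a class. In E5.5 epiblast-like cells the share averaged 0.0532% in 169 cells called G1, 0.0549% in 80 called S and 0.0394% in 10 called G2M. Within embryos the G1 mean was above the S mean in embryos 1, 2, 6, 7 and 9 (embryo 1, 0.0577 against 0.0468%). It was below the S mean in embryos 3, 4 and 8 (embryo 8, 0.0546 against 0.0594%). The G2M means rested on 1 to 3 cells an embryo. They were above the G1 mean in embryos 6 and 7 and below it in embryos 1, 2, 8 and 9. In E6.5 epiblast-like cells the share, again pooled over embryos, was 0.0399% in 128 called G1 and 0.0416% in 55 called S. At E3.5 the G1 and S means were 0.0668 and 0.0574%, with medians in the other order (0.0563 and 0.0696%). The means were 0.0727 and 0.0531% in PrE-like cells, of which 7 were called S, and 0.0639 and 0.0487% in E4.5 epiblast-like cells. The shares of cells called G1 and S were within 1 SD over cells of each other in each of these classes.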

How the data were processed

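Per the labels and methods, the authors picked cells by hand, separated polyadenylated RNA from DNA, made cDNA with SMART-seq2 and sequenced paired reads of 100 bases. By the submitters' processing notes, Trim Galore 0.4.3 and HISAT2 2.0.5 on GRCm38 were used. SeqMonk counted primary alignments whose mapping quality was 20 or more, and cells with few genes or many mitochondrial reads were left out. The deposited table holds raw counts for each gene and cell, not normalized. Members were found by symbol, and members, lists and classes were chosen with earlier results of these data known.

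Cells were clustered in Python 3.11.15 (scikit-learn 1.9.0) and named from the markers. Raw counts were summed per embryo and class (at least 3 cells) and tested with edgeR 4.0.16 in R 4.3.3 (TMM, its filter on low counts, robust quasi-likelihood, all 6 classes in 1 fit), the embryo being the replicate. The code was tested on simulated data. Levels are TMM-scaled CPM. Correlations used log2(CPM + 1), and phases came from scran 1.30.0. Bounds cover counting error only.

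In each comparison of stages or lineages the text names the members called and the 6 with the highest mean CPM. Of these 6, only the range is given between titles. Genes of the lists that were called are named (at most 4 per list), with the 10 outside genes of highest rho at E5.5. Others are said to be chosen after their values were seen, apart from examples of the sequence forms and of histone types and the members called under an alternative. Alternatives were DESeq2 1.42.0, relative log expression, no filter, other minimum numbers of cells, Ward classes, single cells only, leaving out E4.5 or E6.5 embryos, plates or E6.75 cells, and the embryo as a block. Same-numbered samples of 2 classes or titles are cells of the same animal, so they are paired, and their deviations from the class means correlated by 0.0244 to 0.293. Some listed genes are not reported here by name.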

Additional observations from a re-analysis of the deposited data

Results flagged for a closer look

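The level of Hist3h2a in PrE-like cells of E4.5 embryo 5 on plate P2 was 173 CPM, where the other 4 embryos had 33.4 to 70.9. The level of Hist1h2ao in endoderm-like cells of E6.5 embryo 8 on plate P3 was 256 CPM, where the other 6 embryos had 63.4 to 138. Each lay farther from its group than Dixon's test allows, in 2 of 45 groups of 4 to 10 embryos checked, and chance gives that in about 5% of groups. The lineage difference changed between E4.5 and E6.5 for 3 genes by the interaction term, by −4.60 for Hist3h2a, −7.64 for Hist1h2bm and −6.53 for Hist1h4h on the log2 scale. Hist1h2bm and Hist1h4h had no count in the E6.5 endoderm-like sums, so their values are fitted and are no bounds.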

How the results depend on the processing

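Alternatives that moved a count of calls by more than 1.5 times are given here as histone cluster genes called. From E3.5 to E4.5 it was 2, and DESeq2 gave 4, sums of at least 5 cells 1, single cells only 0, and leaving out each E4.5 embryo 2 to 3. From E4.5 to E5.5 it was 0 and DESeq2 gave 1. From E5.5 to E6.5 it was 0, and DESeq2, no filter and Ward classes gave 2 each, sums of at least 5 cells 3, named plates 5 and, as an alternative added after seeing the data, leaving out the E6.5-titled embryos without a plate name 6. Leaving out each E6.5 embryo in turn, likewise added, gave 0 to 5 for this step and 8 to 14 between the E6.5 lineages. Between the E4.5 lineages it was 1, and it was 0 without each E4.5 embryo in turn, with sums of at least 1 cell, with no filter and with single cells only. Between the E6.5 lineages it was 12, and it was 1 with the embryo as a replicate block, 1 in those embryos without the block (also added after seeing the data), 5 on named plates and 0 in embryos without a plate name. The fits on fewer embryos also tested fewer genes, and otherwise the cause was not tested. These counts stand without the share of all genes called in the same fit. The replicate block left the other paired comparisons at 1 call between the E4.5 lineages and 0 for both comparisons of titles. Without Hist1h2ao the share was 0.0488% in PrE-like and 0.0263% in E6.5 endoderm-like cells. The rho of the share with G2 and M phase genes in E6.5 epiblast-like cells was −0.27, and 0.0613 with the mean log2 level. Of single genes, Hist1h2bg reversed between the E6.5 lineages, to 1.20 with sums of at least 1 cell. The other alternatives left 146 values or counts like the main ones. For single genes 838 fits kept the call or its absence, 84 lost a call and 6 gained one. In E6.5 endoderm-like sums, 33 cells limit what can be detected, and a gene without a count there may lie below the floor of 3 counts.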

Other observations

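2 classes entered no comparison. The 25 streak-like cells of E6.5 came from 2 embryos, of which 1 had at least 3 cells and a mean share of 0.0669% of counts on histone cluster genes, and the cells ranged from 0.0375 to 0.121%. The 5 endoderm-like cells of E5.5, all titled VE and from 1 embryo, averaged 0.0264%, with 5 to 12 histone cluster genes detected per cell.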
